A study of Mus musculus with 6 samples.

Results

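MHC class I molecules display peptides from inside a cell to CD8 T cells and NK cells. A heavy chain pairs with the small light chain B2m, and the pair is loaded in the endoplasmic reticulum with peptides that the proteasome cuts and that the TAP transporter imports. Interferon-exposed cells replace the catalytic proteasome subunits with the immunoproteasome forms, and NLRC5, a NOD-like receptor protein that acts as a transactivator, drives class I genes through RFX, CREB/ATF and NF-Y factors bound at a conserved promoter module. In the healthy retina class I is generally low in neurons, and glia, microglia and vascular cells raise it when exposed to interferon.

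The 10 genes described here were chosen by symbol from the 55573 genes of the count table: the class I genes B2m, H2-K1 and H2-D1, the transport and loading genes Tap1, Tap2 and Tapbp, the immunoproteasome genes Psmb8, Psmb9 and Psmb10, and Nlrc5. All 10 were in the table and passed the low-count filter that left 8444 genes to test. The libraries came from C57BL/6 mouse retinas, from cells sorted as retinal ganglion cells (RGCs), which send visual signals from the eye to the brain. All mice carried floxed alleles of Myh9 and Myh10, which encode nonmuscle myosin heavy chains, and their eyes were injected 2 weeks before sacrifice with an AAV2 vector. It carried GFP in the 3 libraries labelled WT, and in the 3 labelled dKO it carried Cre, the recombinase that cuts out floxed sequence. Every library pooled 3 retinas from 3 different mice, so both groups had floxed alleles and a virus, and the groups differed in what the virus carried. The sources used here give neither the age of the mice nor the promoter that drives Cre.

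The libraries held 4569880 to 6146226 counts, but one ribosomal RNA row took 64.2% of dKO replicate 3 and 89.8% to 92.8% of the other 5. Counts outside it were 346037 to 576060 in those 5 libraries and 1636581 in dKO replicate 3, which therefore stands apart in depth. Myh9 was at 64.2 ± 3.91 and 62.7 ± 4.13 CPM and Myh10 at 18.7 ± 2.08 and 18.0 ± 3.39 CPM in WT and dKO (SD, n = 3 each; edgeR adjusted p = 0.908 and 0.735), so neither targeted gene was detectably lower, and gene-level counts include exons outside the floxed part. CPM here are read counts put on one scale by TMM. The 13 RGC markers summed to 25.35 to 29.33 CPM in WT and 34.15 to 35.32 CPM in dKO. Of these 13, 4 were abundant enough to test, while the defining RGC factor Pou4f2 had no count in any WT library. Müller glia and astrocyte markers summed to 3363 to 3481 and 3492 to 3686 CPM, and microglia and macrophage markers to 855 to 936 and 906 to 948 CPM. The class I transcripts below therefore come from libraries in which glial and microglial markers were far more abundant than RGC markers, and which cells they came from was not tested. In such bulk libraries, fewer cells of a type and less RNA per cell cannot be told apart.

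The 3 class I genes B2m, H2-K1 and H2-D1 carry a shared pair of short letters upstream of their RefSeq starts, shown because NLRC5 is known to act through an X box and a Y box in this part of the promoter. RefSeq promoter windows of GRCm38 (250 bases before each start) were found for 8 of the 10 genes, the exceptions being Tap2 and Nlrc5. Capitals mark TGACG, the core of the X2 box, and ATTGG, the reverse complement of the Y box core CCAAT; each stretch is written along its gene's strand.
B2m, chr2:122147609-122147638, plus strand, from base -78: TGACGacctccggatctgagtccggATTGG
H2-K1, chr17:34000359-34000388, minus strand, from base -41: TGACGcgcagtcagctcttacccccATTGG
H2-D1, chr17:35262993-35263022, plus strand, from base -101: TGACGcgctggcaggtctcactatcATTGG

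In all 3 genes the pair of cores started exactly 25 bases apart and in the same orientation. This spaced pair, searched on both strands, was found in 30 of 32851 promoter windows (0.0913%). Among the other listed genes with a window, it was found in 1, the nonclassical class I gene H2-M3. Alone, TGACG was found on either strand of 17.8% of windows and CCAAT of 33.8%. The 3 stretches are otherwise unlike between the light chain and the heavy chains. H2-K1 and H2-D1 matched at 23 of 30 bases, B2m and H2-K1 at 13, and B2m and H2-D1 at 12. These counts include the bases of both cores, which match in every pair because the stretches were picked by them. The search for the spaced pair was added after the windows were read, and a match is only a match of letters.

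The classical heavy chain genes H2-K1 and H2-D1 shared a further stretch with the NF-kB motif of class I promoters and the reverse complement of the interferon response motif GAANNGAAA, both in capitals. It is shown because it differs at only 1 base between these genes, while the rest of their windows was not compared.
H2-K1, chr17:34000429-34000458, minus strand, from base -111: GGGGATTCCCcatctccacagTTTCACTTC
H2-D1, chr17:35262923-35262952, plus strand, from base -171: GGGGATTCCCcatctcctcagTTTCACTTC

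The stretches matched at 29 of 30 bases, a count that includes the motif letters by which they were picked. This NF-kB motif occurred on either strand of 0.0852% of all windows and GAANNGAAA of 6.31%, and both motifs were added after the windows were read. B2m instead held the longer interferon response element (2.98% of windows), and Psmb8 the palindromic STAT motif TTCNNNGAA (7.02% of windows). Capitals mark the motif in each.
B2m, chr2:122147538-122147567, plus strand, from base -149: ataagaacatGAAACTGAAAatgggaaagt
Psmb8, chr17:34198088-34198117, plus strand, from base -107: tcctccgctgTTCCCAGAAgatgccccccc

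Tap1 and Psmb9 are transcribed away from each other from RefSeq starts 226 bases apart on chromosome 17, so both of their motif matches (1 TGACG and 1 CCAAT) lie on the same bases. Tapbp held CCAAT only, Psmb10 none of the motifs searched, and none of the 8 genes held a second form of the NF-kB motif (0.32% of windows).

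**Figure D1:**
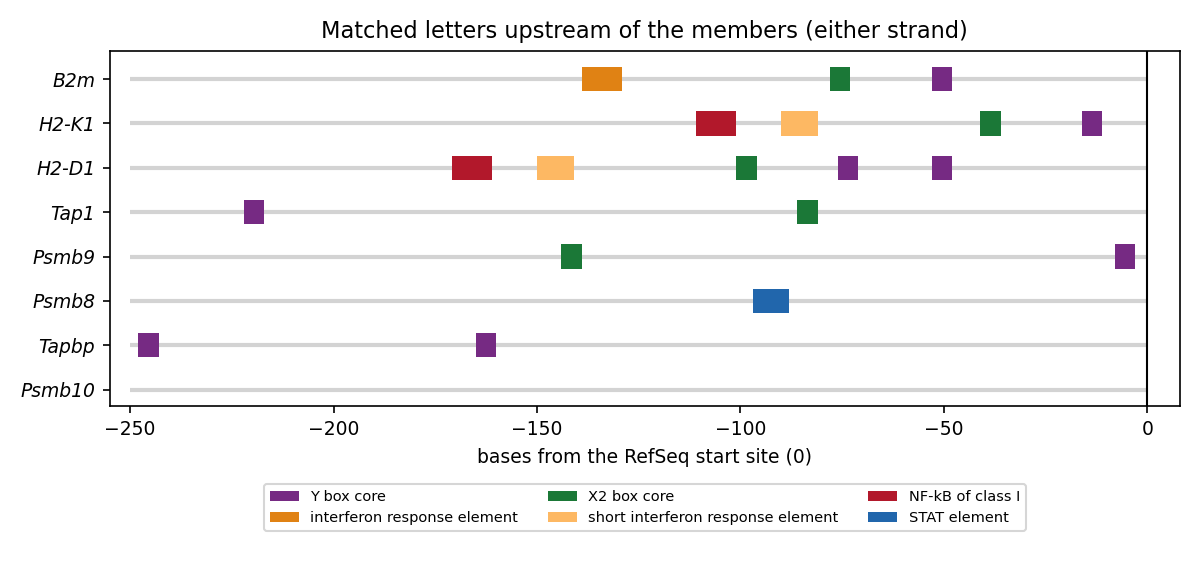
Positions of matched motifs (coloured bars, to scale) in the 250 bases upstream of the RefSeq start of 8 of the genes; the x axis gives bases from the start and the grey line is the window searched. The X2 and Y cores start 25 bases apart in B2m, H2-K1 and H2-D1, and H2-D1 has a second Y core nearer the start.

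Of the 10 genes, 1 was lower in the libraries labelled dKO and none was higher. This was Nlrc5, by the edgeR quasi-likelihood test with Benjamini-Hochberg adjustment over all 8444 genes. Over all genes tested, 1.18% were called lower, 0.734% higher and 1.92% in either direction. At an unadjusted p under 0.05 there were 2 of the 10, Nlrc5 and B2m, both lower, against 12.5% of all genes in either direction and 6.88% lower. All 3 dKO values lay below all 3 WT values for B2m, Psmb8 and Nlrc5, which is 3 of 10 against 8.31% of all genes tested. No member had all dKO values above all WT values, against 8.66% of all genes. The log2 fold change was negative for 9 of the 10, with a median of -0.16, against 50.2% of all genes and a median of -0.00072. Of these 9, Tap2 had nearly equal group means (10.52 CPM in WT and 10.57 in dKO). Its log2 fold change was positive without dKO replicate 3 (0.18). The sum over the 10 genes was 502 to 530 CPM in WT and 455 to 478 CPM in dKO.

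**Figure D2:**
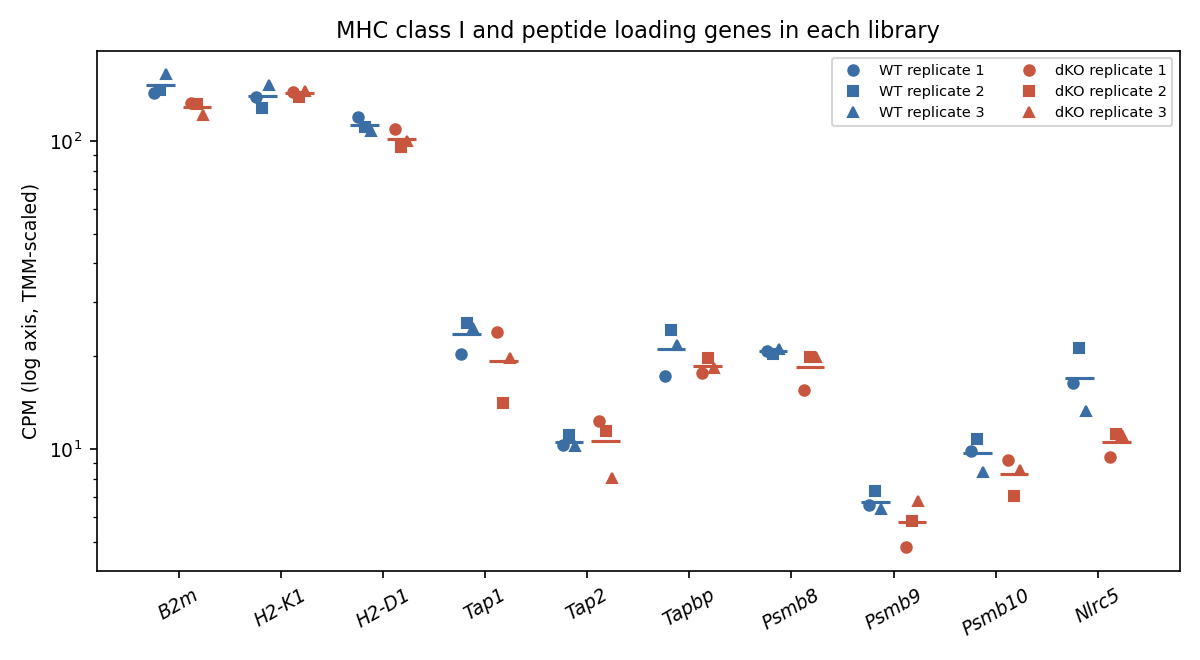
CPM of the 10 genes (log axis) in each of the 6 libraries, with symbols for the replicate number and a bar for the group mean. B2m, H2-K1 and H2-D1 lie near or above 100 CPM in all libraries, the other 7 between 4.80 and 25.7 CPM, and the WT and dKO points are fully apart for B2m, Psmb8 and Nlrc5.

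Nlrc5 (ENSMUSG00000074151, chromosome 8, 94434356 to 94527272 in GRCm38, protein coding) is the class I transactivator. It was at 16.4, 21.2 and 13.3 CPM in WT replicates 1 to 3 and at 9.40, 11.2 and 11.1 CPM in dKO replicates 1 to 3, from 194 counts in WT and 265 in dKO. The lowest WT library stood above the highest dKO library, and the WT values were the more spread (SD 4.01 against 0.997, n = 3 each). Nlrc5 fell by 0.64 on the log2 scale (SE 0.15; adjusted p = 0.00732 by edgeR), and the 95% interval ran from a loss of 48.1% to a loss of 20.9%. DESeq2 did not call it (log2 fold change -0.67, adjusted p = 0.174), and neither did edgeR without WT replicate 2, its highest library (-0.48, adjusted p = 0.176). Without dKO replicate 3 the call held (-0.71, adjusted p = 0.0201). The antisense gene 9330175E14Rik, with 14 counts in all, overlaps 0.92% of the exonic bases of Nlrc5.

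B2m (ENSMUSG00000060802, chromosome 2, 122147686 to 122153083), the invariant light chain without which heavy chains do not reach the surface, was at 143, 146 and 164 CPM in WT and 132, 132 and 121 CPM in dKO. The groups did not overlap, and WT replicate 3 was the highest library. The mean went from 151 ± 11.4 to 128 ± 6.24 CPM (n = 3 each, SD). With edgeR this log2 difference of -0.24 (SE 0.096) did not pass over all genes (adjusted p = 0.230). With limma-voom it did pass (log2 fold change -0.26, adjusted p = 0.0258), and that tool called 2 of the 10 genes, B2m and Nlrc5, against 1.94% of all genes (1.26% lower). DESeq2 called none of the 10, against 0.616% of all genes (0.308% lower). The edgeR interval, which is not adjusted for the number of genes, ran from a loss of 25.8% to a loss of 3.38%. Without dKO replicate 3 the log2 fold change was -0.19 (adjusted p = 0.514).

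H2-K1 (ENSMUSG00000061232, chromosome 17, 33996017 to 34000347) and H2-D1 (ENSMUSG00000073411, chromosome 17, 35262730 to 35267499) encode the classical heavy chains of this strain. H2-K1 was at 139, 128 and 152 CPM in WT and 144, 139 and 145 CPM in dKO. All 3 dKO values fell within the WT range. Its log2 fold change was 0.031 (SE 0.096, adjusted p = 0.936), with an interval from a loss of 10.5% to a gain of 16.6%. H2-D1 was at 119, 111 and 108 CPM in WT and 109, 95.4 and 99.8 CPM in dKO, where dKO replicate 1 lay between the WT values. Its log2 fold change was -0.15 (SE 0.094, adjusted p = 0.531), with an interval from a loss of 21.0% to a gain of 2.37%.

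Ratios within a library do not depend on how libraries are scaled. The ratio of B2m counts to H2-K1 counts was 1.03, 1.15 and 1.08 in WT and 0.923, 0.948 and 0.835 in dKO, so every WT library had more B2m than H2-K1 counts and every dKO library fewer. The log2 difference was -0.27 (two-sided exact permutation p = 0.1, the smallest that 3 against 3 libraries allow; 0.183 adjusted over the 11 ratios added after the data were seen). The ratio of H2-K1 to H2-D1 was 1.16, 1.15 and 1.41 in WT and 1.32, 1.45 and 1.45 in dKO, with overlapping groups (exact permutation p = 0.2, adjusted 0.244). The heavy chains share sequence: 6.87% of the 50-base windows of H2-K1 coding transcripts and 13.9% of those of H2-D1 also occur in another gene, so their split depends on how reads with several matches were counted. B2m and Nlrc5 had no such shared window.

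Per kilobase of annotated exon, B2m had the highest level of the 10 genes, at 176 CPM per kb in WT and 149 in dKO. H2-K1 followed at 47.5 and 48.5, and H2-D1 at 43.7 and 39.3 CPM per kb. The other 7 genes lay between 1.84 CPM per kb (Psmb9) and 6.13 CPM per kb (Psmb8) in WT. With the longest coding transcript as the length, the order B2m, H2-K1, H2-D1, Psmb8 at the top was kept (176, 86.1, 53.6 and 12.7 CPM per kb in WT). The order below it was not, and Nlrc5, at 2.24 CPM per kb, then came last in place of Psmb9.

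Tap1 and Tap2 form the transporter that moves peptides into the endoplasmic reticulum, and Tapbp (tapasin) tethers empty class I molecules to it. None of these passed with edgeR, DESeq2 or limma-voom, and none had an unadjusted p under 0.05. Tap1 (ENSMUSG00000037321, chromosome 17, 34187553 to 34197225) was at 20.3, 25.7 and 24.7 CPM in WT and 23.99, 14.1 and 19.7 CPM in dKO. The groups overlapped, and dKO replicate 2 was the lowest library. Its log2 fold change was -0.25 (SE 0.13, adjusted p = 0.417), with a 95% interval from -0.52 to 0.0088 on that scale.

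Tap2 (ENSMUSG00000024339, chromosome 17, 34203527 to 34216321) was at 10.3, 11.1 and 10.2 CPM in WT and 12.3, 11.4 and 8.03 CPM in dKO. The dKO libraries lay on both sides of the WT values, dKO replicates 1 and 2 above and dKO replicate 3 below. The log2 fold change of Tap2 was -0.10 (SE 0.18, adjusted p = 0.876) with all libraries and 0.18 (adjusted p = 0.826) without dKO replicate 3. Tapbp (ENSMUSG00000024308, chromosome 17, 33915899 to 33929292) was at 17.3, 24.4 and 21.7 CPM in WT and 17.7, 19.7 and 18.3 CPM in dKO, all within the WT range (log2 fold change -0.17, SE 0.13, adjusted p = 0.656). Of the exonic bases of Tapbp, 29.0% are shared with Gm19412 on the opposite strand or Zbtb22 on the same strand, which had 9 and 166 counts over the 6 libraries.

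The immunoproteasome subunits Psmb8, Psmb9 and Psmb10 replace Psmb5, Psmb6 and Psmb7 in the catalytic core and favour peptides that fit class I. Psmb8 (ENSMUSG00000024338, chromosome 17, 34197721 to 34201454) was at 20.8, 20.3 and 21.2 CPM in WT and 15.5, 19.9 and 19.9 CPM in dKO. The groups did not overlap, but dKO replicates 2 and 3 lay close under the WT values (log2 fold change -0.14, SE 0.13, adjusted p = 0.721). Psmb9 (ENSMUSG00000096727, chromosome 17, 34181987 to 34187764) was at 6.56, 7.29 and 6.38 CPM in WT and 4.80, 5.82 and 6.79 CPM in dKO (-0.13, SE 0.21, adjusted p = 0.868). Psmb10 (ENSMUSG00000031897, chromosome 8, 105935735 to 105938444) was at 9.83, 10.8 and 8.42 CPM in WT and 9.21, 7.04 and 8.55 CPM in dKO (-0.19, SE 0.18, adjusted p = 0.737). The groups overlapped for both Psmb9 and Psmb10. With 78 counts in WT and 153 in dKO, Psmb9 was the most thinly counted of the 10 genes, and its interval (a loss of 31.9% to a gain of 22.9%) was accordingly wide.

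The constitutive partners did not pass either. Psmb6 was at 9.74 ± 2.08 CPM in WT and 9.51 ± 1.66 in dKO (log2 fold change -0.030, SE 0.18, adjusted p = 0.967), and Psmb7 at 8.57 ± 0.527 and 8.51 ± 1.28 CPM (-0.045, SE 0.19, adjusted p = 0.955; SD, n = 3 each). Psmb5 had only 8, 3 and 2 counts in WT and 7, 5 and 29 in dKO and was not tested. The log2 ratio of Psmb8 to Psmb5 counts was 3.49, 4.20 and 5.06 in WT and 3.44, 3.91 and 3.37 in dKO. Of the 50-base windows of Psmb5, 54.1% also occur in another gene (46.8% in Gm3375), so reads of Psmb5 can be lost or split and this ratio is uncertain. The ratio of Psmb9 to Psmb6 was 0.581, 0.701 and 0.864 in WT and 0.630, 0.538 and 0.685 in dKO. The ratio of Psmb10 to Psmb7 was 1.18, 1.30 and 0.918 in WT and 1.23, 0.711 and 1.06 in dKO. Of the windows of Psmb7, 28.1% also occur in Nek6, and 9.71% of those of Psmb9 in Tap1. Both partners lie on the opposite strand, and strand use in counting is unknown, so these ratios are uncertain too. For these 3 ratios the groups overlapped, and the exact permutation p was 0.2, 0.4 and 0.6 (two-sided, 0.6 each after adjustment over the 3).

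The difference between the change of Nlrc5 and that of the other genes was looked at within libraries, a comparison added after the data were seen. The log2 ratio of Nlrc5 to each of the other 9 genes had a lower mean in dKO in all 9 cases. Nlrc5 had the most negative log2 fold change of the 10 genes, so lower ratios largely follow from that. All 9 ratios share the same Nlrc5 counts and are not separate observations. The groups did not overlap for 5 of them, H2-K1, H2-D1, Tapbp, Psmb8 and Psmb9. For H2-K1 the log2 ratio was -3.07, -2.58 and -3.51 in WT and -3.92, -3.62 and -3.70 in dKO, a difference of -0.70. Each of the 5 had the smallest exact permutation p possible (0.1, two-sided; 0.183 adjusted over the 11 added ratios). The other 4 ratios, to B2m, Tap1, Tap2 and Psmb10, overlapped (exact permutation p = 0.3, 0.5, 0.2 and 0.2). With 3 libraries a group, this test cannot show that Nlrc5 changed more than the other genes.

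**Figure D3:**
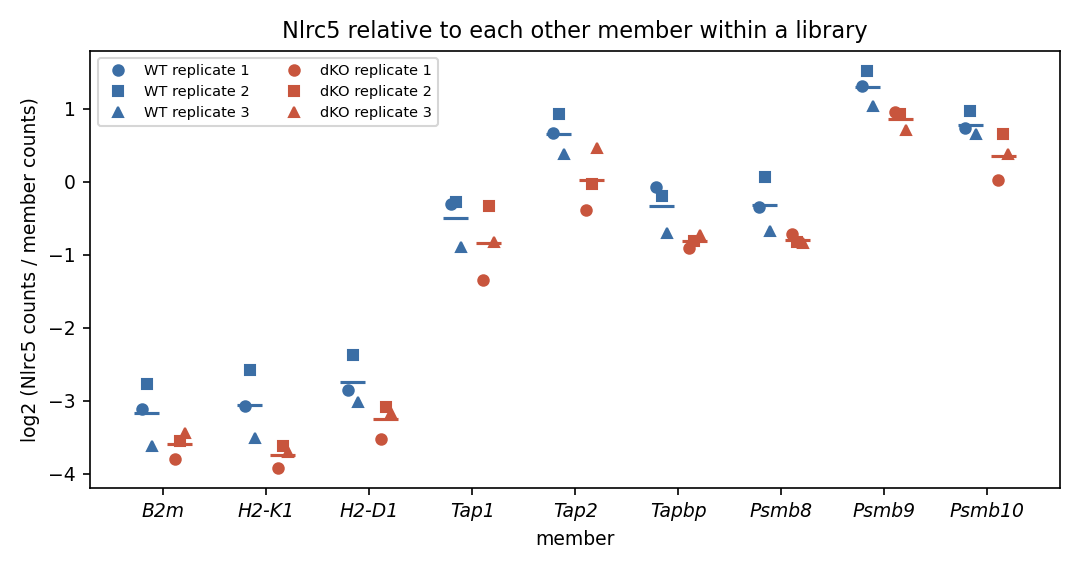
Log2 ratio of Nlrc5 counts to the counts of each other gene within the same library, with symbols for the replicate number and bars for the group means. For H2-K1 all dKO points (-3.92 to -3.62) lie below all WT points (-3.51 to -2.58), while for Tap1 and Tap2 the groups overlap.

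Of 20 tested genes in the list of class I gene regulators, 2 were called lower, among them Stat2, and none higher. Of all genes tested, 1.18% were called lower and 0.734% higher. In the list 17 had a negative value (median log2 fold change -0.18), against 50.2% of all genes (median -0.00072). Stat2, which acts with Irf9 after type I interferon, was at 11.1, 15.2 and 14.5 CPM in WT and 8.45, 5.58 and 7.71 CPM in dKO (-0.84, SE 0.17, adjusted p = 0.000897). Every dKO library lay below every WT library, and DESeq2 also called Stat2 (adjusted p = 0.0428), as the only gene of the list.

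Irf9, the DNA-binding partner of Stat2, went from 14.6 ± 1.11 to 10.3 ± 1.98 CPM (-0.43, SE 0.16, adjusted p = 0.170). Irf1, which binds the interferon element of class I promoters, went from 25.9 ± 2.38 to 22.7 ± 1.37 CPM (-0.21, SE 0.12, adjusted p = 0.469). Rfx5, a subunit of the RFX complex that holds NLRC5 at the promoter, was at 5.50 ± 0.986 and 4.51 ± 0.354 CPM (-0.33, SE 0.24, adjusted p = 0.644; SD, n = 3 each). None of these 3 passed, although all dKO values lay below all WT values for each. Of all genes tested, 8.31% had all dKO values below all WT values. In the regulator list, 5 of the 20 tested genes had groups without overlap, Stat2 and these 3 among them. The groups overlapped for the other tested genes of that list. An antisense gene covers 26.8% of the exonic bases of Rfx5, and strand use in counting is unknown. In the list of interferon receptors and kinases none of 11 passed with edgeR, DESeq2 or limma-voom. By edgeR 3 had an unadjusted p under 0.05, against 12.5% of all genes. They were led by Socs3 (0.40, SE 0.15) and Usp18 (-0.68, SE 0.29), both feedback inhibitors of cytokine signalling, with adjusted p of 0.214 and 0.276. Of 9 interferon ligand genes, 8 had no count in any library, and interferon gamma, Ifng, had 0, 1 and 0 counts in WT and 2, 0 and 3 in dKO. A count of 0 allows up to 0.576 to 0.950 CPM in 5 libraries and 0.196 CPM in dKO replicate 3 (3 counts, counting error only).

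**Figure D4:**
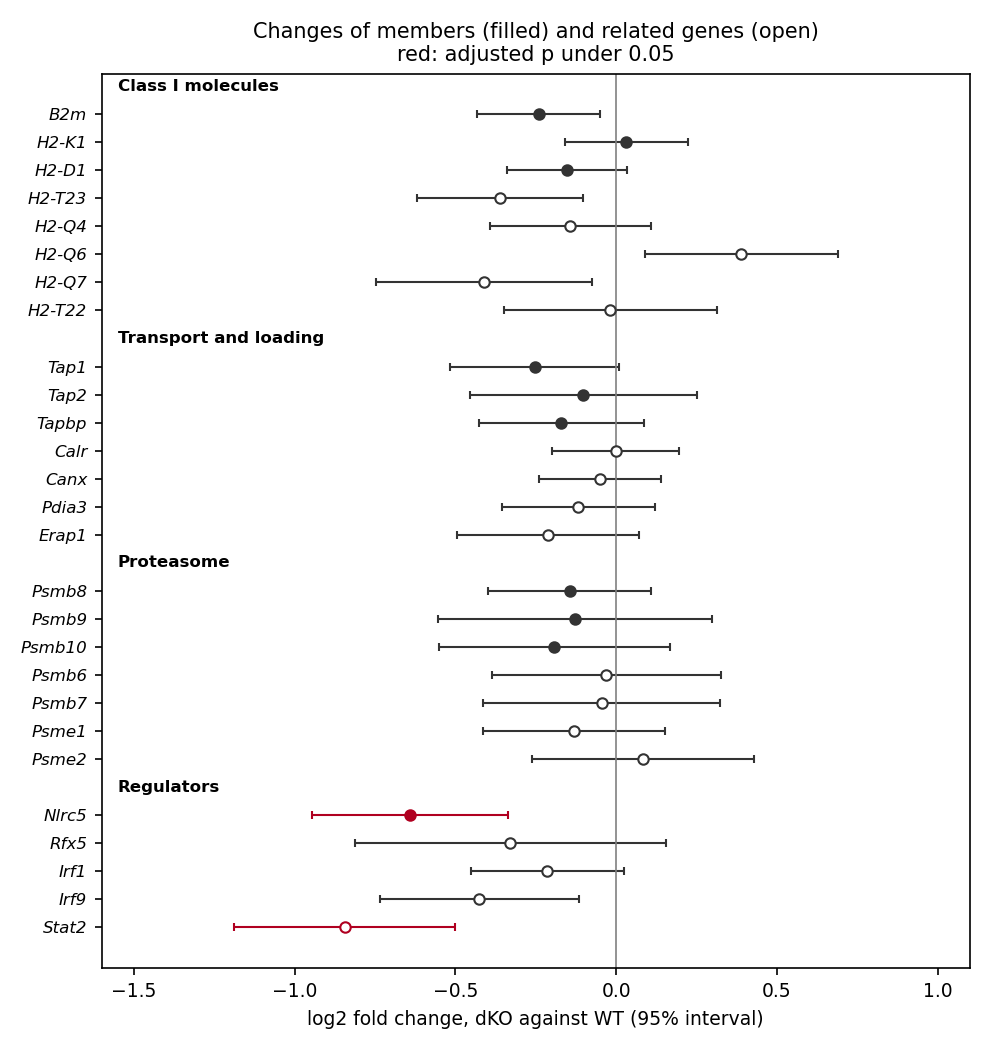
Log2 fold changes, dKO against WT, with 95% intervals from the edgeR fit, for the 10 genes (filled) and related genes of the pathway (open), with those past an adjusted p of 0.05 in red. Of the genes drawn, Nlrc5 and Stat2 are past the threshold, and H2-K1 is the member with a value above 0.

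Among 10 tested other class I heavy chain genes none passed with edgeR, DESeq2 or limma-voom. By edgeR 3 had an unadjusted p under 0.05, against 12.5% of all genes. The median log2 fold change was -0.084, with 7 negative and 3 positive values. H2-T23, which encodes Qa-1, the nonclassical molecule that NK cell receptors read, was at 22.1, 22.8 and 19.4 CPM in WT and 19.2, 16.7 and 15.3 CPM in dKO, without overlap (-0.36, SE 0.13, adjusted p = 0.159). The Qa-2 genes H2-Q6 and H2-Q7 had values of opposite sign. H2-Q6 was at 13.3, 13.0 and 10.7 CPM in WT and 19.8, 14.3 and 15.2 CPM in dKO, higher without overlap (0.39, SE 0.15, adjusted p = 0.214). H2-Q7 was at 13.1, 10.8 and 11.7 CPM in WT and 10.9, 8.49 and 8.36 CPM in dKO, with overlap (-0.41, SE 0.17, adjusted p = 0.251). H2-Q7 was named after its values were seen. Of the 50-base windows of H2-Q6, 35.0% occur in another gene, as do 34.9% of those of H2-Q7 and 29.8% of those of H2-T23. Reads of these 3 genes can thus move to or from other copies. In that list 7 genes, among them H2-M1, H2-M5 and H2-Q1, had no count in any library.

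The remaining steps of the pathway also held no called gene with edgeR, DESeq2 or limma-voom. Of 17 peptide loading and trimming genes 4 had an unadjusted p under 0.05 by edgeR, with a median log2 fold change of -0.047. Over all genes tested, 12.5% had such a p. The smallest p belonged to Blmh, a cysteine aminopeptidase (0.75, SE 0.23, adjusted p = 0.0690), and Lnpep, an aminopeptidase that trims peptides in endosomes (-0.32, SE 0.11, adjusted p = 0.131). Of 12 other core proteasome and assembly genes 1 had an unadjusted p under 0.05, and 10 had a positive value (median 0.24), led by the core subunits Psmb3 (0.56, SE 0.23, adjusted p = 0.270) and Psmb1 (0.35, SE 0.18, adjusted p = 0.400). The 4 proteasome activators, which include the interferon-inducible Psme1 and Psme2, had a median of -0.023 and none had an unadjusted p under 0.05. The smallest p were those of Psme4 (-0.19, SE 0.19, adjusted p = 0.754) and Psme3 (0.21, SE 0.22, adjusted p = 0.760). Of the genes for receptors that recognise class I, only Cd8b1, the CD8 beta chain (-0.26, SE 0.37, adjusted p = 0.835), and Pirb, an inhibitory receptor of myeloid cells (0.84, SE 0.32, adjusted p = 0.200), were abundant enough to test.

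Markers of cell types that could supply class I transcripts were measured in the same libraries, and their part in the change of Nlrc5 was not tested. Of all genes tested, edgeR called 1.18% lower and 0.734% higher. Dendritic cell markers summed to 13.62 to 15.95 CPM in WT and 10.9 to 11.7 CPM in dKO, without overlap. Such separation was common among the marker sums. The bipolar cell sums were also lower in dKO without overlap. The RGC, Müller glia and astrocyte, rod, and amacrine and horizontal sums were higher in dKO without overlap. Red blood cell sums were 0 in WT and 0.196 to 0.485 CPM in dKO. Those dKO values are below the 0.656 to 0.950 CPM that a count of 0 allows in WT, so no difference can be read there. None of the 2 tested dendritic cell markers passed with edgeR, DESeq2 or limma-voom (1 at an unadjusted p under 0.05). They were Flt3 (-1.08, SE 0.36, adjusted p = 0.116) and Itgax (-0.16, SE 0.19, adjusted p = 0.794). T and NK cell markers summed to 47.6 to 58.6 and 49.1 to 61.6 CPM, with 1 of 9 tested lower, the granzyme Gzma (-1.01, SE 0.28, adjusted p = 0.0369), while the T cell genes Lck (0.38, SE 0.19) and Cd4 (0.26, SE 0.22) did not pass. Gzma was not called with DESeq2, nor without WT replicate 1 or 2 or dKO replicate 2 or 3. Of 14 microglia and macrophage markers 1 was higher, Lyz2 (0.50, SE 0.097, adjusted p = 0.000392), while the most abundant, Ctss (-0.099, SE 0.098), was not. B and plasma cell markers summed to 76.0 to 88.5 and 70.1 to 80.8 CPM, with neither of 2 tested called (Jchain -0.21, SE 0.099, adjusted p = 0.342; Xbp1 -0.16, SE 0.13, adjusted p = 0.693).

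Of 12 tested Müller glia and astrocyte markers 1 was higher, Gfap (0.69, SE 0.12), and the most abundant, Glul (0.054, SE 0.11) and Clu (0.18, SE 0.11), did not pass. Endothelial and mural markers summed to 349.9 to 406.5 and 366.5 to 369.8 CPM, with none of 7 tested called by edgeR, DESeq2 or limma-voom (1 at an unadjusted p under 0.05, Acta2, 0.41, SE 0.16, adjusted p = 0.206). Their most abundant genes were Kdr (-0.089, SE 0.097) and Rgs5 (0.085, SE 0.095). Rod markers summed to 199 to 230 CPM in WT and 373 to 462 CPM in dKO, with 8 of 13 tested higher, among them Prph2 (1.11, SE 0.12), Gnat1 (0.96, SE 0.12) and Sag (0.87, SE 0.12). Bipolar cell markers summed to 206 to 216 and 151 to 154 CPM, with 4 of 10 tested lower, Prkca (-0.79, SE 0.12), Trpm1 (-0.57, SE 0.10), Gpr179 (-0.66, SE 0.12) and Grm6 (-0.67, SE 0.19). Of 4 tested RGC markers Nefl was higher (1.63, SE 0.28), and Thy1 (-0.073, SE 0.17), Isl1 (-0.65, SE 0.23) and Tubb3 (0.86, SE 0.33, adjusted p = 0.214) did not pass. Tubb3 was named after its values were seen. Amacrine and horizontal cell markers had 1 of 2 tested higher, Slc6a9 (1.96, SE 0.38), beside Pax6 (0.020, SE 0.12). Red blood cell markers had no count in WT and summed to at most 0.485 CPM in dKO.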

How the data were processed

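Total RNA of sorted cells was made into stranded libraries, per the labels' protocols. The authors deposited raw read counts per Ensembl gene, not normalized. The genome build GRCm38 and the tools DESeq2 1.22.2 and STAR 2.7.0d are listed per the submitters' processing notes; how reads were assigned to genes, with what program, strand option and annotation release, is not given in the sources used here. Mice within a library differed, but no label says that libraries share none, so p-values reflect the spread between libraries, which may be technical. Libraries of a group varied beyond sampling noise (chi-square per degree of freedom 1.16 to 4.19) and each is 1 replicate.

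In R 4.3.3, the quasi-likelihood test of edgeR 4.0.16 (two-sided, TMM scaling, no term but group) was run on the genes that filterByExpr kept (minimum count 10, minimum total 15). Adjusted p-values are Benjamini-Hochberg over 8444 genes, with a threshold of 0.05. Standard errors were derived from the F statistic. In simulated data for this comparison (8444 genes, 200 changed), 160 genes were called, 7 falsely, and recovery was 39.7% for 1.5-fold, 87% for 2-fold and 100% for 4-fold changes. The simulation gave every gene the same dispersion (coefficient of variation 8.2%). It drew the changed genes from those neither thinly nor very highly counted. Recovery with gene-wise spread or in thinly counted genes was not tested. Ratios used counts plus 0.5. Gene positions and lengths came from GENCODE M21 (GRCm38), which held 55394 of the 55573 IDs, and promoter windows from RefSeq (GRCm38.p6). Exonic length merges all annotated exons, retained introns included.

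The genes, the 24 lists and the tests were chosen with earlier results of these data known. All 10 genes were named, with Psmb5, Psmb6, Psmb7, Irf1, Stat2, Irf9 and Rfx5; from each other list up to 4 called genes, otherwise the 2 of smallest p; marker lists add their 2 most abundant genes. Some genes that this rule names are not reported here. Of the listed genes 4 (H2-Q8, H2-Q9, H2-T9 and Lilrb4b) had no match by symbol and were not analysed here, and Nrdc was matched as Nrd1. Other settings tried were scaling by RLE, by upper quartile and by library totals, 2 other filters, DESeq2 1.42.0, limma-voom (limma 3.58.1), the replicate number as a block, the fit without the ribosomal RNA row, thinning of dKO replicate 3 to the other libraries' mean depth, and each library left out. Figures were drawn with matplotlib 3.10.9.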

Additional observations from a re-analysis of the deposited data

How the results depend on the processing

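Over the 16 alternatives, Nlrc5 kept its direction in 15 and its call in 13. Its log2 fold change was -0.67 with DESeq2 (adjusted p = 0.174), and with single libraries left out it ran from -0.78 to -0.48 (adjusted p 0.00111 to 0.176). B2m was called only with limma-voom (-0.26; adjusted p over its alternatives 0.0258 to 0.615). The number of members called was 0 with DESeq2 and with library totals, 2 with limma-voom, and 0 to 1 with single libraries left out. Scaling by library totals alone moved the median of all genes to 1.21 on the log2 scale, since nothing then offsets the smaller share of ribosomal RNA in one dKO library. The values there were 0.95 for B2m, 1.05 for H2-D1, 0.97 for Tap1, 1.04 for Tap2, 1.05 for Tapbp, 1.1 for Psmb8, 1.11 for Psmb9, 1.01 for Psmb10 and 0.57 for Nlrc5, all below that median, while H2-K1, at 1.27, was above it. H2-K1 turned negative only without WT replicate 2 (-0.030; range -0.030 to 0.10 over single omissions), and Tap2 turned positive with dKO replicate 3 thinned (0.14) or left out (range -0.23 to 0.18). The other members kept a negative value over single omissions, from -0.29 to -0.17 for B2m, -0.20 to -0.12 for H2-D1, -0.37 to -0.14 for Tap1, -0.32 to -0.072 for Tapbp, -0.24 to -0.057 for Psmb8, -0.34 to -0.030 for Psmb9 and -0.28 to -0.13 for Psmb10, none of them called. The log2 difference of Psmb10 to Psmb7 ran from -0.37 to 0.022 over single omissions.

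With library totals no gene was called in the regulator, RGC, Müller glia, microglia, T and NK, rod, bipolar and amacrine lists (0 each). The regulator list had 1 call with DESeq2, the loading and trimming list 1 with upper-quartile scaling and 0 to 1 with single omissions, the Müller glia list 2 with the CPM filter, 3 with limma-voom and 1 to 2 with single omissions, and the amacrine list 0 with limma-voom. The T and NK list had 0 calls without a low-count filter, with DESeq2, with the replicate block and with dKO replicate 3 thinned, and 0 to 1 with single omissions. Same-numbered libraries of the groups correlated at 0.0129 to 0.0287 in their deviations from the group means, each best with its own number, which does not establish a pairing. With the replicate block Nlrc5 was at -0.62 (adjusted p = 0.0111), 1 of the 10 genes was called and 158 of all genes, against 162 without it. DESeq2 called 52 genes, library totals 3 and the fit without WT replicate 1 called 90. Depth limits Psmb9, Psmb10 and Tap2 most, each with at most 131 counts in any library.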
